A study of Mus musculus with 8 samples.

Results

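Of the 8 pools of sorted bone marrow cells in this experiment, 4 carried over 12% of all their gene counts in immunoglobulin genes and 4 carried less. The former are called immunoglobulin-rich here and the latter immunoglobulin-poor. The cells were B-cell-biased lymphoid progenitors, early lymphoid cells of the marrow that lean towards the B lineage, sorted by flow cytometry after enrichment for c-Kit, the receptor carried by early blood progenitors. The pools came from H2afy-/- mice (H2afy_KO, 4 pools) and H2afy+/+ mice (H2afy_WT, 4 pools) of 5 to 12 weeks, and each held RNA of 5000 to 15000 cells from 2 to 3 mice. H2afy encodes the histone variant macroH2A1. The rich pools were H2afy_KO 3 and 4 and H2afy_WT 3 and 4, and the poor pools were H2afy_KO 1 and 2 and H2afy_WT 1 and 2, so that each side held 2 pools of either genotype.

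An antibody is built of heavy and light chains. A B cell precursor rearranges variable segments at the heavy chain locus first and at a light chain locus later, and resting B cells carry moderate amounts of both transcripts. Plasma cells and their dividing precursors devote much of their messenger RNA to these chains. They also expand the endoplasmic reticulum under the factor Xbp1, and the joining chain encoded by Igj links the secreted IgM and IgA units. A lymphoid progenitor that has not finished rearrangement would carry mainly unrearranged or germline transcripts of the heavy chain locus.

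The pools were chosen by their immunoglobulin share, which is given as a description, with no test. In the rich pools it was 39.0% in H2afy_KO 3, 33.4% in H2afy_KO 4, 19.5% in H2afy_WT 3 and 12.9% in H2afy_WT 4. The poor pools had 0.402% in H2afy_KO 1, 10.0% in H2afy_KO 2, 3.47% in H2afy_WT 1 and 0.948% in H2afy_WT 2. H2afy_KO 2 at 10.0% and H2afy_WT 4 at 12.9% lay on either side of the threshold and close to it, and both rich H2afy_KO pools lay above both rich H2afy_WT pools. The exact binomial 95% interval of the largest share ran from 39.02% to 39.06%, which covers counting error only.

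**Figure D1:**
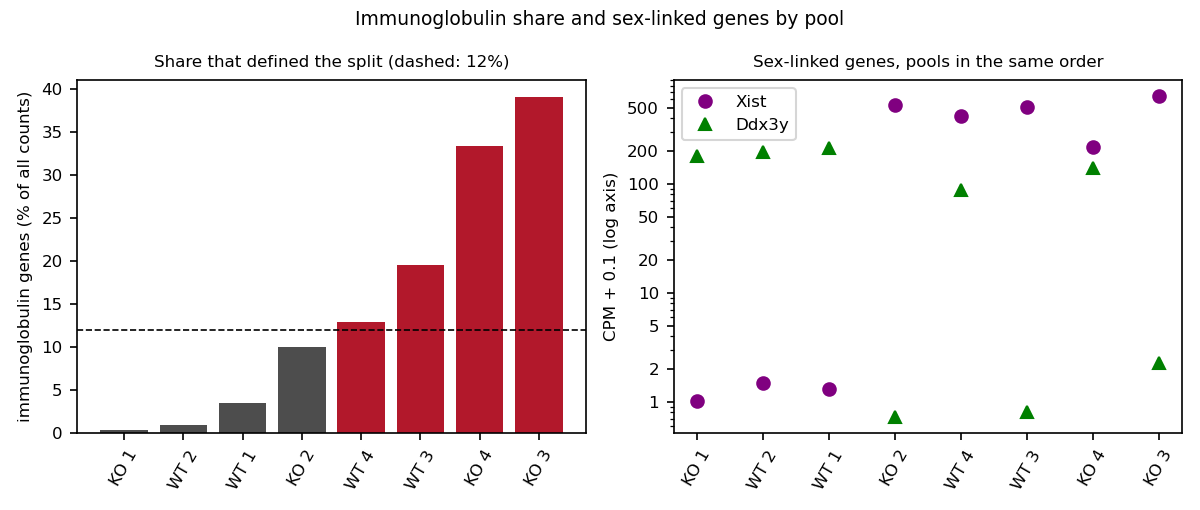
Left: percent of all gene counts in immunoglobulin genes in each of the 8 pools, in rising order, with the 12% threshold as a dashed line (grey bars: poor, red bars: rich). Right: the X-linked transcript Xist and the Y-linked gene Ddx3y in the same order, as CPM plus 0.1 on a log axis. The 4 rich pools hold 12.9% to 39.0%, and all 4 of them carry Xist, while 3 of the 4 poor pools do not beyond 1.39 CPM.

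The heavy chain locus lies on chromosome 12 (114509484 to 117238672, NCBIM37), the kappa locus on chromosome 6 (67505630 to 70676751) and the lambda locus on chromosome 16 (19065327 to 19260937). The same chains led the counts, which are not per length, in every pool. Ighm, the constant region of IgM, held 45.3% to 84.9% of the immunoglobulin counts and was first in all 8 pools, and Igkc, the kappa light chain constant region, was second in all 8. In H2afy_KO 3, Ighm alone held 19.8% of all counts and Igkc 10.2%. In H2afy_KO 1, the pool of lowest share, Ighm held 0.341% and Igkc 0.0225%. Ighm had thus 84.9% of the immunoglobulin counts in H2afy_KO 1 and 50.7% in H2afy_KO 3, where light chains and variable segments took more.

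Single variable segments were abundant too. Igkv14-126 was at rank 3 or 4 among immunoglobulin genes in 7 of the 8 pools and held 2.47% of all counts in H2afy_KO 4, 1.68% in H2afy_KO 3, 0.985% in H2afy_WT 3 and 0.777% in H2afy_WT 4. Its share was 0.00565% in H2afy_KO 1, 0.530% in H2afy_KO 2, 0.127% in H2afy_WT 1 and 0.00646% in H2afy_WT 2. Ighv11-2 held 1.28% of all counts in H2afy_KO 4 and 0.00279% in H2afy_KO 1. As background, these 2 segments form the receptor against phosphatidylcholine that is known from B-1 cells, a self-renewing B cell population. Igkv14-130 was at rank 3 in H2afy_WT 3, with 1.81% of all counts, against 0.389% in H2afy_WT 4.

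The split has 2 companions in these samples. It coincides with the replicate numbers, since the numbers 3 and 4 are rich and 1 and 2 are poor in both genotypes. The labels do not say what a number marks, so the immunoglobulin share and whatever the numbers stand for cannot be told apart. It also moved with sex-linked transcripts. Xist, the RNA of the inactive X chromosome in female cells, had 641, 217, 507 and 423 CPM in the rich pools H2afy_KO 3, H2afy_KO 4, H2afy_WT 3 and H2afy_WT 4, and 0.910, 535, 1.20 and 1.39 CPM in the poor pools H2afy_KO 1, H2afy_KO 2, H2afy_WT 1 and H2afy_WT 2. The Y-linked helicase gene Ddx3y had 2.16, 140, 0.705 and 87.9 CPM in the same rich pools and 181, 0.623, 215 and 196 CPM in the poor ones. H2afy_KO 4 and H2afy_WT 4 carried both transcripts. The part of sex in the results below was not tested apart from a fit with the Y-linked level as a covariate.

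Total counts ran from 21330088 to 29029765 per pool, and counts outside immunoglobulin genes from 13967202 in H2afy_KO 3 to 26652993 in H2afy_KO 1. All CPM values here are counts scaled to the library's total outside immunoglobulin genes, with TMM scaling, so that the immunoglobulin share does not dilute other genes. The number of other genes with at least 1 count was 20978 ± 1358 (SD, n = 4) in the rich pools and 19154 ± 540 (SD, n = 4) in the poor ones, without overlap (2-sided exact permutation p = 0.0286, the smallest that 4 against 4 allows, and 0.0857 adjusted over 3 library measures). Mitochondrial genes held 1.54% ± 0.410 (SD, n = 4) of the counts in rich and 1.16% ± 0.291 (SD, n = 4) in poor pools (exact permutation p = 0.171, adjusted 0.257). Ribosomal protein genes held 4.53% ± 0.145 and 4.81% ± 0.741 (SD, n = 4 each; exact permutation p = 0.457, adjusted 0.457). The targeted gene H2afy had 1688, 1816, 2334 and 2082 CPM in H2afy_KO 3, 4, 1 and 2, and 2481, 2375, 2907 and 3057 CPM in H2afy_WT 3, 4, 1 and 2. It was thus counted in every H2afy_KO pool, and whether its reads lie outside the deleted part was not tested (rich over poor log2 fold change -0.32, SE 0.12, edgeR adjusted p = 0.220). Ly6d, a surface antigen that marks lymphoid progenitors biased to the B lineage, had 770 to 1473 CPM in rich and 724 to 895 CPM in poor pools, so this mark of the labelled cell type was present in all 8. Whether any 2 pools drew on the same mice is not in the labels, so p-values here rest on the spread from pool to pool, which may be technical.

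The 4 markers of plasma and B cells did not pass the test, although all had higher means in the rich pools. Igj had 22505, 19540, 10387 and 7092 CPM in the rich pools H2afy_KO 3, H2afy_KO 4, H2afy_WT 3 and H2afy_WT 4, and 38.8, 6037, 2244 and 336 CPM in the poor pools H2afy_KO 1, H2afy_KO 2, H2afy_WT 1 and H2afy_WT 2. Each rich pool was above each poor pool, and the order of Igj levels over the 8 pools was that of the immunoglobulin share. The log2 fold change of rich over poor, with genotype as a covariate, was 2.78 (SE 1.40, edgeR adjusted p = 0.411). The poor pools differed by over 2 orders of magnitude among themselves, and H2afy_KO 2 was close to the lowest rich pool.

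Xbp1, the factor that drives expansion of the secretory apparatus, had 563, 262, 124 and 93.7 CPM in the rich pools and 42.1, 117, 53.5 and 55.2 CPM in the poor pools, in the same order of pools. H2afy_KO 2 lay above H2afy_WT 4, so the sides overlapped (log2 fold change 1.69, SE 0.47, edgeR adjusted p = 0.165). Ms4a1, the B cell surface protein CD20, had 57.4, 37.8, 15.8 and 20.3 CPM in rich and 0.455, 19.1, 7.04 and 2.38 CPM in poor pools (log2 fold change 2.12, SE 0.93, adjusted p = 0.339). Sdc1, the plasma cell surface proteoglycan CD138, was high in both rich H2afy_KO pools alone. It had 179 and 141 CPM there, 48.5 and 44.0 CPM in the rich H2afy_WT pools, and 42.1, 63.6, 43.6 and 45.2 CPM in the poor pools (log2 fold change 0.83, SE 0.31, adjusted p = 0.249). Within H2afy_KO its log2 fold change was 1.60 (edgeR adjusted p = 0.0320) and within H2afy_WT 0.06 (adjusted p = 0.972). The test of the difference between genotypes had an unadjusted p of 0.000555 and did not pass adjustment over all genes, for which the smallest value was 0.996.

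In the fit across 14726 genes outside the immunoglobulin set, 49 genes rose in the rich pools (edgeR quasi-likelihood test, Benjamini-Hochberg adjusted p under 0.05), which is 0.333% of the genes tested, and 0 fell. Under DESeq2 588 rose and 137 fell, and under limma-voom 175 rose and 7 fell. Without a filter on low counts 834 rose and 298 fell, and with at least 5 CPM in 4 pools 17 rose and 0 fell. At an unadjusted p under 0.05, 1328 genes were higher (9.02%) and 962 lower (6.53%). The values of the rich and poor pools did not overlap for 703 genes in the higher direction (4.77%) and for 460 in the lower direction (3.12%). The median log2 fold change over all genes was 0.00, and 50.3% of genes were above 0.

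Of the 49 genes, 23 had a mean under 5 CPM, 20 were under 1 CPM in every poor pool, and 19 reached the filter's minimum in at least 2 rich pools but in fewer than 2 poor pools. These 19 passed only through the side where they were high, as did 995 of all 14726 genes, while 260 passed only through the poor pools. For these 19 the call and its direction are given as a description.

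The 49 genes are tied to a few pools. H2afy_KO 3 was the highest of the 8 pools for 42 of them, and H2afy_KO 2 the highest poor pool for 33. All 49 had positive fold changes within both genotypes, and 34 had the larger one within H2afy_KO. They were chosen as higher over the pools of both genotypes, so a positive sign within each was nearly fixed in advance. Without H2afy_KO 3 the count was 0, without H2afy_KO 4 it was 5, without H2afy_WT 2 it was 4 and without H2afy_WT 1 it was 211, with 57 lower. With the replicate number as a random block in limma-voom the count was 0. With the level of 4 Y-linked genes as a covariate it was 7, of which 5 are among the 49.

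The threshold decided the count as well. At 5%, which puts H2afy_KO 2 among the rich pools, 2 genes rose, neither among the 49, and at 15%, which puts H2afy_WT 4 among the poor pools, 0 rose. Without both pools nearest the threshold 33 genes rose, 15 of them shared with the 49. With the log2 immunoglobulin percent as a trend in place of the split 281 genes rose and 5 fell, and 30 of the 49 were among them.

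Secretory genes stood among the genes that rose. Edem2, which helps to remove misfolded glycoproteins from the endoplasmic reticulum (chromosome 2, 155527413 to 155555211 on the minus strand, NCBIM37), had 203, 141, 64.6 and 53.6 CPM in the rich pools and 29.7, 45.5, 29.1 and 17.8 CPM in the poor ones. Each rich pool lay above each poor pool, and the rich H2afy_KO pools were the highest (log2 fold change 1.77, SE 0.25, edgeR adjusted p = 0.0315). Sec24d, a cargo adaptor of the vesicle coat that carries proteins from the endoplasmic reticulum to the Golgi (chromosome 3, 122970414 to 123068553 on the plus strand), had 129, 77.1, 69.8 and 61.2 CPM in rich and 45.8, 47.3, 25.5 and 30.4 CPM in poor pools. Its log2 fold change was 1.19 (SE 0.16, adjusted p = 0.0225), and it was alike in both genotypes, with 1.15 within H2afy_KO and 1.23 within H2afy_WT (unadjusted p of the difference 0.817).

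The list of endoplasmic reticulum chaperones and unfolded protein response genes had 35 members tested. Of these 1 rose, Edem2 (0.333% of all genes), and 0 fell. At an unadjusted p under 0.05, 25 were higher (9.02% of all genes) and 1 lower (6.53% of all genes). A fold change above 0 was found for 33 (50.3% of all genes), with a list median of 0.60. Plasma cells expand this compartment, so this list too is close to what chose the pools, and its members are no separate observations. The chaperone Hsp90b1 had 2084, 1421, 1081 and 1165 CPM in rich and 677, 1062, 897 and 627 CPM in poor pools (log2 fold change 0.79, SE 0.20, adjusted p = 0.104). Pdia4, a disulfide isomerase, had 780 to 1720 CPM in rich and 440 to 748 CPM in poor pools (log2 fold change 0.995, SE 0.19, adjusted p = 0.0536). Hspa5, the main chaperone of this compartment, had the smaller log2 fold change of 0.50 (SE 0.15, adjusted p = 0.148). Canx, also on this list, went the other way and was the 1 lower by the unadjusted p. It had 1045, 869, 1179 and 1181 CPM in rich and 1245, 1294, 1376 and 1560 CPM in poor pools, without overlap (log2 fold change -0.36, SE 0.12, adjusted p = 0.171). The list median was 0.98 within H2afy_KO and 0.37 within H2afy_WT.

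The second secretory list, of translocation and vesicle transport, had 1 of 45 members that rose, Sec24d (0.333% of all genes). By the unadjusted p 15 were higher and 1 lower (9.02% and 6.53% of all genes), and the median was 0.23. Wipi1, a phosphoinositide-binding protein of autophagy, had 53.5, 35.9, 22.7 and 11.9 CPM in rich and 7.36, 10.6, 6.96 and 4.09 CPM in poor pools (log2 fold change 1.98, SE 0.29, adjusted p = 0.0280). Atp6v0a1, a subunit of the proton pump of vesicles and lysosomes, had a log2 fold change of 1.76 (SE 0.28, adjusted p = 0.0410), with 39.9 to 154 CPM in rich and 17.5 to 35.3 CPM in poor pools. Dmxl2, which takes part in the assembly of that pump, rose by 1.97 (SE 0.33, adjusted p = 0.0410), with 2.64 within H2afy_WT and 1.34 within H2afy_KO.

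The promoters were searched for elements through which the unfolded protein response is known to act. The endoplasmic reticulum stress element was searched as CCAAT and CCACG with 9 free bases between them, and the unfolded protein response element as TGACGTGG, on both strands, from 250 bases before to 50 after each RefSeq start site (GRCm38.p6). These were 2 of 8 motifs searched, chosen after the values had been seen. The stress element was in 37 of 27025 genes (0.137%), in 8 of the 29 matched members of the chaperone list and in 0 of the 36 matched genes among the 49. Canx, which was lower in the rich pools, is among the 8, and its window is not shown. The response element was in 193 genes (0.714%), in 2 of the 29 chaperone genes and in 1 of the 36, Sec24d. The windows below are shown because they belong to the 1 gene of the 49 with either element and to some chaperone or plasma cell genes described here. The element is in capitals. They lie at chr3:123267450-123267497 on the plus strand for Sec24d, chr2:34772005-34772063 on the plus strand for Hspa5, chr10:86705618-86705676 on the minus strand for Hsp90b1 and chr10:75893222-75893280 on the plus strand for Derl3, where the element is in reverse. Hsp90b1 has another stress element, in reverse, in the window chr10:86705513-86705571, which is not shown.
Sec24d: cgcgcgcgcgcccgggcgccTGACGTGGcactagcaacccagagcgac
Hspa5: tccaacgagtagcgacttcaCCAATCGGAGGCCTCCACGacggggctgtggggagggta
Hsp90b1: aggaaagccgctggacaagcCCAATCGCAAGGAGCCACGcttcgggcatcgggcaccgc
Derl3: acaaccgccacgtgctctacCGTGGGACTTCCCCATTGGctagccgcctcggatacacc

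A match of letters is a description and shows no binding. The other motifs searched were ATTGG and CCACG with 1 free base between them, in 0.0444% of genes and 0 of the 36, CCACG alone, which both stress elements contain, in 35.5% and 17 of the 36, and ACGTGT, a core known from Xbp1 binding, in 5.89% and 5 of the 36. The interferon element, TTTC and TTTC with 2 free bases between them, was in 3.99% and 3 of the 36, the E-box CACCTG in 22.6% and 13 of the 36, and the PU.1 site GAGGAAGT in 3.69% and 1 of the 36.

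Plasma cells are known to make immunoglobulin and the products of the plasma cell list together, so this list is close to what chose the pools and its counts are no separate evidence. Of 23 members tested, 2 rose (0.333% of all genes) and 0 fell. At an unadjusted p under 0.05, 17 were higher (9.02% of all genes). A fold change above 0 was found for 22 (50.3% of all genes), with a median of 1.95. Of the 23, 1 passed the filter through the rich pools alone. Trib1, a pseudokinase that guides protein degradation (chromosome 15, 59479905 to 59488105 on the plus strand), had 41.2, 37.7, 15.1 and 12.5 CPM in rich and 6.33, 10.5, 4.72 and 5.48 CPM in poor pools (log2 fold change 1.84, SE 0.24, adjusted p = 0.0225). Glcci1 had 2.03 to 6.77 CPM in rich and 0.270 to 0.835 CPM in poor pools (log2 fold change 2.82, SE 0.39, adjusted p = 0.0225).

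Other members of that list had larger fold changes that did not pass the test, and their poor pools spread widely. Tnfrsf17, the survival receptor BCMA, had 75.1, 56.7, 27.2 and 19.7 CPM in rich and 0.417, 8.05, 4.56 and 1.93 CPM in poor pools (log2 fold change 3.43, SE 0.81, adjusted p = 0.130). Prdm1, the factor Blimp-1 that fixes the plasma cell state, had 79.8, 41.0, 20.6 and 14.8 CPM in rich and 1.29, 11.6, 6.24 and 6.02 CPM in poor pools (log2 fold change 2.39, SE 0.71, adjusted p = 0.185). Derl3, a factor of protein removal from the endoplasmic reticulum, had 32.2 to 177 CPM in rich and 3.30 to 29.1 CPM in poor pools (log2 fold change 2.52, SE 0.71, adjusted p = 0.180). For each of the 3 genes H2afy_KO 2 was the highest poor pool and H2afy_KO 1 the lowest. Irf4, which acts in plasma cells and in light chain rearrangement, had 215 and 143 CPM in the rich H2afy_KO pools, 59.6 and 53.3 CPM in the rich H2afy_WT pools and 10.8 to 33.8 CPM in the poor pools (log2 fold change 1.95, SE 0.60, adjusted p = 0.201).

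**Figure D2:**
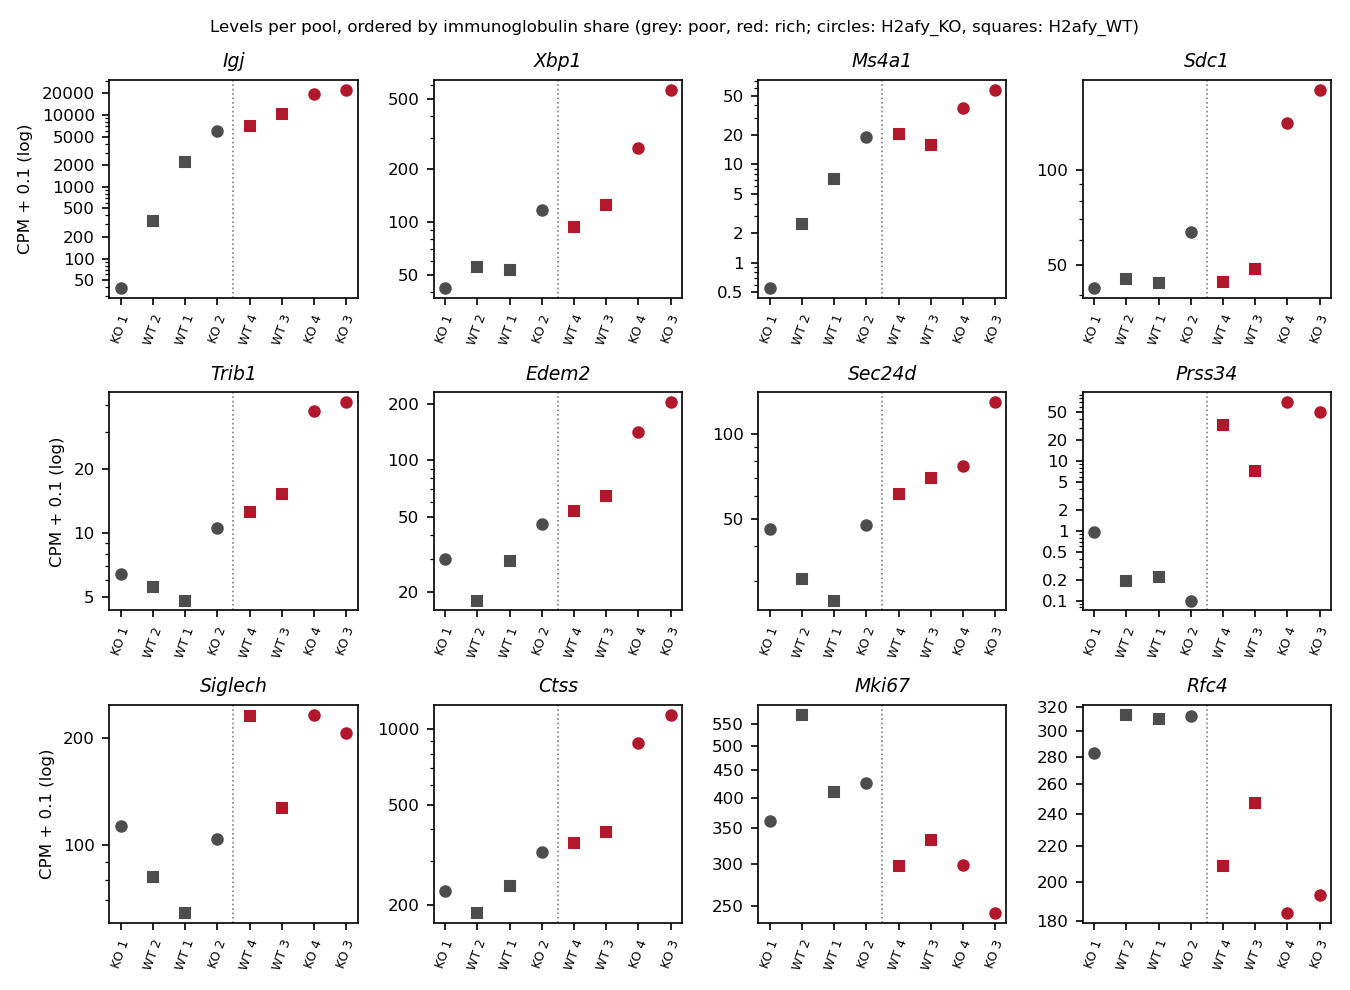
CPM plus 0.1 on a log axis for 12 genes in the 8 pools, which stand in rising order of immunoglobulin share from left to right, with the split as a dotted line (grey: poor, red: rich; circles: H2afy_KO, squares: H2afy_WT). Igj climbs along the share from 38.8 to 22505 CPM, Sdc1 is high in both rich H2afy_KO pools alone, Prss34 stays under 1 CPM in every poor pool, and Mki67 and Rfc4 are lower in each rich pool than in each poor pool.

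Mature B cell genes split into members that followed the share and members that did not. Of 32 tested, 0 rose and 0 fell, and the median was 0.52. At an unadjusted p below 0.05, 9 were higher and 1 was lower (9.02% and 6.53% of all genes). Of the 32, 2 passed the filter through the rich pools alone, so the median and counts are a description. Cd55, a complement regulator, had 8.76 to 18.1 CPM in rich and 1.18 to 5.00 CPM in poor pools (log2 fold change 2.16, SE 0.43, adjusted p = 0.0689). Fcrla, an Fc receptor-like protein of B cells, had 37.6 to 162 CPM in rich and 3.15 to 21.2 CPM in poor pools (log2 fold change 2.90, SE 0.60, adjusted p = 0.104). Others such as the B cell inhibitory receptor gene Cd22 (log2 fold change 0.08, adjusted p = 0.957) and Cd37 (-0.03, adjusted p = 0.954) had values near 0. The summed level of the list ran from 3018 to 4299 CPM in rich and 2747 to 3582 CPM in poor pools, which overlap.

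Genes of B-lineage specification were uneven. Of 40 tested, 0 rose and 0 fell, 29 had a fold change below 0 (49.7% of all genes), and the median was -0.22. The rich and poor values did not overlap for 4 in the higher direction (4.77% of all genes), Ikzf3 and Irf4 among them. In the lower direction this held for 0 (3.12% of all genes). Counts this small are given as a description of the list. Rag1, a subunit of the recombinase that cuts immunoglobulin genes, had 28.6, 85.4, 139 and 171 CPM in rich and 76.2, 112, 253 and 381 CPM in poor pools (log2 fold change -0.87, SE 0.33, adjusted p = 0.252). Ebf1, the factor that sets B cell fate, had 77.2, 261, 354 and 302 CPM in rich and 156, 255, 576 and 762 CPM in poor pools (log2 fold change -0.66, SE 0.39, adjusted p = 0.463). For both, the H2afy_WT pools were above H2afy_KO pools of the same side, and the sides overlapped. Ikzf3, the factor Aiolos of later B cells, was the member with the largest fold change, 3.03 (SE 1.06, adjusted p = 0.264), with 70.7 ± 41.9 CPM in rich and 8.29 ± 9.93 CPM in poor pools (SD, n = 4). Its order over the 8 pools, from 0.266 CPM in H2afy_KO 1 to 123 CPM in H2afy_KO 3, was that of the immunoglobulin share.

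Genes of class II antigen presentation were uneven. Of 15 class II presentation genes tested, 1 rose (0.333% of all genes), Ctss, which encodes the protease cathepsin S that trims the invariant chain. By the unadjusted p under 0.05, 5 were higher and 0 lower (9.02% and 6.53% of all genes), while 7 fold changes were above 0 and 8 below. Ctss had 1142, 881, 392 and 355 CPM in rich and 227, 325, 239 and 186 CPM in poor pools (log2 fold change 1.35, SE 0.23, adjusted p = 0.0485). The invariant chain gene Cd74 itself had 8712, 6529, 3759 and 2110 CPM in rich and 833, 2392, 949 and 1228 CPM in poor pools (log2 fold change 1.84, SE 0.37, adjusted p = 0.0797). The class II chain genes H2-Aa (log2 fold change -0.00, adjusted p = 0.996) and H2-Ab1 (0.08, adjusted p = 0.904) had values near 0, and the list median was 0.00.

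Most genes of dendritic cells, the antigen-presenting cells whose plasmacytoid kind makes interferon, had fold changes above 0. Of 28 dendritic cell genes tested 1 rose, Siglech (0.333% of all genes), and 0 fell. At an unadjusted p under 0.05, 12 were higher (9.02% of all genes). A fold change above 0 was found for 27 (50.3% of all genes), and the median was 0.54. Of the 28, 3 passed the filter through the rich pools alone. The summed level was 3352 to 5280 CPM in rich and 2638 to 3654 CPM in poor pools, which overlap. The erythroid and macrophage lists below had larger medians. Siglech, a surface lectin of these cells, had 208, 233, 127 and 232 CPM in rich and 113, 104, 64.3 and 81.4 CPM in poor pools (log2 fold change 1.16, SE 0.18, adjusted p = 0.0323). Upb1 had 5.79 to 12.5 CPM in rich and 1.08 to 6.13 CPM in poor pools (log2 fold change 1.70, SE 0.33, adjusted p = 0.0600). Ccr9, a homing receptor, had 97.1 to 176 CPM and 80.8 to 103 CPM (log2 fold change 0.68, SE 0.17, adjusted p = 0.105). Siglech was as high in H2afy_WT 4 as in the rich H2afy_KO pools.

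Prss34, a protease of basophils and mast cells (chromosome 17, 25435339 to 25437106 on the plus strand), was among the 49 genes. It had 50.9, 69.6, 7.10 and 33.0 CPM in rich pools, or 707, 1378, 141 and 733 counts. The poor pools H2afy_KO 1, H2afy_KO 2, H2afy_WT 1 and H2afy_WT 2 had 23, 0, 3 and 2 counts. It passed the filter on low counts through the rich pools alone, so it could enter the test only by being high there, and its fitted fold change and p are not given.

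The basophil and mast cell list had 16 members, of which 11 passed the filter, 4 of them through the rich pools alone. The summed level of these 11 was 155 to 632 CPM in rich and 16.2 to 124 CPM in poor pools. All 11 had fold changes above 0 (50.3% of all genes), with a median of 2.26. The sum and these values are a description only, since the 4 could enter them only by being high in the rich pools. Among its members Prg2, a granule protein of eosinophils, had 499, 229, 78.6 and 192 CPM in rich and 2.58, 90.1, 64.7 and 5.66 CPM in poor pools, which overlap (adjusted p = 0.423). Prg2 thus held 499 of the summed 632 CPM in H2afy_KO 3 and 90.1 of 124 CPM in H2afy_KO 2, but 2.58 of 16.2 CPM in H2afy_KO 1. Mcpt8, a protease that defines basophils, had 3.37 to 13.1 CPM in rich and 1.59 to 5.00 CPM in poor pools (adjusted p = 0.145). Fcer1a, the IgE receptor chain, had at most 1.51 CPM in any pool.

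The summed levels of monocyte, erythroid and macrophage genes overlapped between the sides. The granulocyte and monocyte list (36 tested) had 0 that rose or fell, 28 fold changes above 0 (50.3% of all genes) and a median of 0.68. Its summed levels were 3583 to 14974 CPM in rich and 2123 to 9894 CPM in poor pools. Mpo, the granule enzyme of myeloid precursors, had 3426 CPM in H2afy_WT 4 and 1720 CPM in the poor H2afy_WT 1, both above H2afy_WT 3 with 985 CPM (log2 fold change 0.94, SE 0.42, adjusted p = 0.339). The erythroid and megakaryocyte list (24 tested) had 0 that rose or fell, 22 fold changes above 0 (50.3% of all genes) and a median of 0.79. Its summed levels were 768 to 1664 CPM in rich and 421 to 1100 CPM in poor pools. The macrophage list (17 tested) also had 0, with 16 fold changes above 0 (50.3% of all genes), a median of 0.93, and 299 to 686 CPM and 192 to 456 CPM. Of these 2 lists, 5 erythroid and 4 macrophage members passed the filter through the rich pools alone. By the unadjusted p under 0.05, 7 granulocyte and monocyte, 0 erythroid and 5 macrophage genes were higher (9.02% of all genes). In each of these lists 0 were lower (6.53% of all genes). With the Y-linked covariate the macrophage median went from 0.93 to 0.05.

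Other genes that rose included Grn, which encodes the lysosomal growth factor progranulin and had 468, 478, 198 and 266 CPM in rich and 164, 173, 135 and 112 CPM in poor pools (log2 fold change 1.20, SE 0.15, adjusted p = 0.0225). The long noncoding RNA Neat1, the scaffold of paraspeckles, had 279, 276, 89.1 and 176 CPM in rich and 46.8, 73.8, 55.7 and 51.0 CPM in poor pools (log2 fold change 1.76, SE 0.27, adjusted p = 0.0416). Cd274, the checkpoint ligand PD-L1, had 33.2 ± 11.6 CPM in rich and 12.8 ± 1.83 CPM in poor pools (SD, n = 4), which did not overlap (log2 fold change 1.32, SE 0.22, adjusted p = 0.0410). Among 36 T and innate lymphoid genes, 4 passed the filter through the rich pools alone, and Cd7 was not among these. Cd7, a surface protein of early lymphoid and T cells, was the 1 of the 36 that rose (0.333% of all genes). It had 57.6, 65.4, 35.5 and 46.0 CPM in rich and 27.4, 32.1, 14.3 and 24.1 CPM in poor pools (log2 fold change 1.07, SE 0.18, adjusted p = 0.0410).

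Etl4 also rose. It had 57.5, 35.1, 9.56 and 9.51 CPM in rich and 0.721, 2.18, 1.80 and 0.764 CPM in poor pools (log2 fold change 3.98, SE 0.57, adjusted p = 0.0410). Bcl2l15, a member of the Bcl2 family by name, was also among the 49. It had 12.4, 7.83, 3.62 and 2.84 CPM in rich and at most 0.260 CPM in poor pools, which is 3 to 7 counts, and passed the filter through the rich pools alone, so its p is not given.

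Cell cycle genes were lower in the rich pools by small amounts, and none passed the adjusted test. All 54 S phase genes tested had fold changes below 0, against 49.7% of all genes, with a median of -0.30 and a range of -0.74 to -0.04. At an unadjusted p under 0.05, 30 were lower (6.53% of all genes) and 0 higher (9.02% of all genes), and for 15 the rich values lay wholly below the poor ones (3.12% of all genes). The summed level was 11111, 11508, 13420 and 13219 CPM in the rich pools and 15527, 13763, 16244 and 15326 CPM in the poor pools, so each rich pool lay below each poor pool. The median was between -0.37 and -0.25 under every alternative of the rich-poor fit, the fit without the rich H2afy_KO pools included. The trend on log2 immunoglobulin percent is left out of this range, since its scale differs. Within H2afy_KO the median was -0.34 and within H2afy_WT -0.24. These genes rise and fall together over the cycle, so their number is not a number of separate observations.

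Single genes show the size. Rfc4, a subunit of the clamp loader of DNA replication, had 193, 184, 247 and 209 CPM in rich and 283, 312, 310 and 313 CPM in poor pools (log2 fold change -0.55, SE 0.11, edgeR adjusted p = 0.0630). Pole, the leading strand polymerase, had 76.2 to 92.1 CPM in rich and 111 to 128 CPM in poor pools (log2 fold change -0.50, SE 0.11, adjusted p = 0.0797). Mcm2, of the replicative helicase, had a log2 fold change of -0.43 (SE 0.11, adjusted p = 0.109).

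Of 51 genes of G2 and M phase, 49 had fold changes below 0 (49.7% of all genes), with a median of -0.30. By the unadjusted p 25 were lower and 0 higher (6.53% and 9.02% of all genes). Mki67, the proliferation antigen, had 242, 298, 332 and 297 CPM in rich and 362, 426, 410 and 572 CPM in poor pools (log2 fold change -0.59, SE 0.14, adjusted p = 0.0907). The smallest adjusted p among lower genes was that of the splicing factor gene Srsf1, 0.0513, with 117, 110, 137 and 111 CPM in rich and 169, 201, 171 and 223 CPM in poor pools (log2 fold change -0.69, SE 0.13). In bulk RNA, a smaller share of cycling cells and less of these transcripts per cell cannot be told apart, and the same holds for every gene given here.

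**Figure D3:**
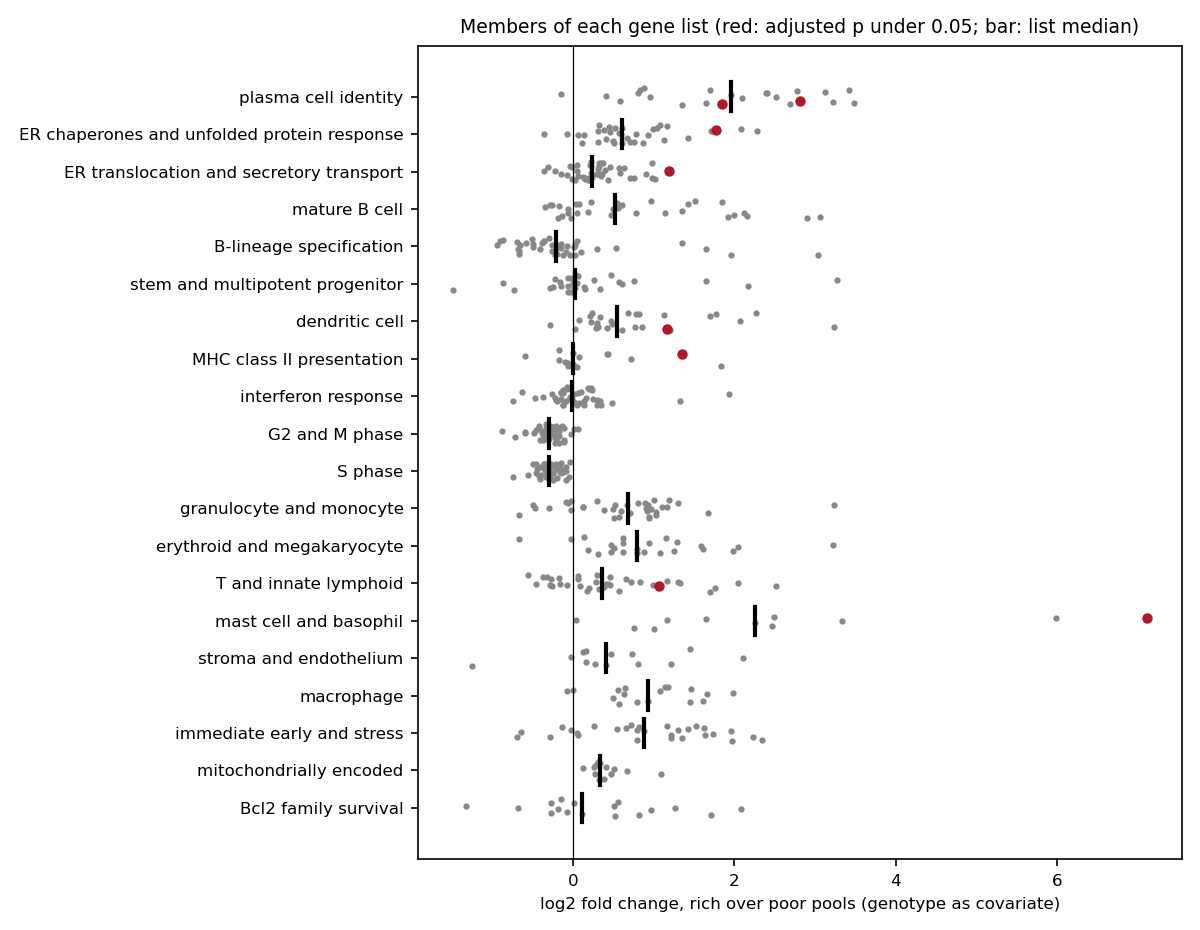
Log2 fold change of rich over poor pools for each tested member of 20 gene lists (points), with the list median as a black bar and members of adjusted p under 0.05 in red. The plasma cell list has its median at 1.95 and 2 red points. The mast cell and basophil list has the larger median of 2.26, and 4 of its 11 members passed the filter through the rich pools alone. The S phase list lies wholly below 0 with no red point, and most lists of other cell types straddle 0 or lie somewhat above it. Prss34, the red point of the mast cell and basophil list, passed the filter through the rich pools alone and is drawn as a description.

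Immediate early genes, which respond within minutes to handling or signals, were uneven. Of 29 tested, 0 rose or fell, and the median was 0.88. At an unadjusted p below 0.05, 12 were higher against 2 lower (9.02% and 6.53% of all genes). Of the 29, 2 passed the filter through the rich pools alone, so the median and counts are a description. Fos had 831, 1142, 334 and 897 CPM in rich and 209, 210, 208 and 393 CPM in poor pools (log2 fold change 1.64, SE 0.41, adjusted p = 0.132). Hsp90aa1, a cytosolic chaperone of the same list, went the other way with 233, 226, 287 and 300 CPM in rich and 469, 408, 404 and 346 CPM in poor pools (log2 fold change -0.65, SE 0.14, adjusted p = 0.0756). Interferon response genes (43 tested) had 0 that rose or fell and a median of -0.01.

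The difference was also read within each genotype. In H2afy_KO, 80 genes rose in the rich pools (0.543%) and 1 fell, Hsp90aa1 (0.00679%). In H2afy_WT 0 rose and 0 fell by edgeR, with 994 at an unadjusted p under 0.05 (6.75%), while DESeq2 had 38 that rose and 0 that fell. Of the 49 genes, 24 were among the 80. Without H2afy_KO 1 or H2afy_KO 3 the count of 80 was 0, without H2afy_KO 4 it was 37, and without H2afy_WT 3 or 4 it was 14 or 21. The immunoglobulin share spans 0.402% to 39.0% within H2afy_KO and 0.948% to 19.5% within H2afy_WT, so the 2 contrasts are not of equal size. The interaction of split and genotype called 0 genes by edgeR, with 685 at an unadjusted p under 0.05 (4.65%), while DESeq2 called 12 higher and 1 lower. A fixed block for the replicate number, added after seeing the data, also gave 0 calls by edgeR, with 919 at that unadjusted p and a smallest adjusted p of 0.592.

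Single genes show both patterns. Ly6a, the progenitor antigen Sca-1, had 733 and 476 CPM in rich H2afy_KO pools, 188 and 180 CPM in rich H2afy_WT pools and 82.8 to 118 CPM in the poor pools. Its log2 fold change was 2.43 within H2afy_KO (edgeR adjusted p = 0.0230) and 0.87 within H2afy_WT (adjusted p = 0.710), with an unadjusted interaction p of 0.000803 that did not pass adjustment. The stem and multipotent progenitor list that holds Ly6a did not share this. Of its 30 members tested, 16 had fold changes above 0 (50.3% of all genes) and 14 below. The list median was 0.02, with -0.19 within H2afy_KO and 0.29 within H2afy_WT. Of the 30, 2 passed the filter through the rich pools alone. Cd7, Sec24d and Siglech had fold changes of like size in both genotypes, 1.05 and 1.09 for Cd7, 1.15 and 1.23 for Sec24d, and 1.02 and 1.30 for Siglech.

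**Figure D4:**
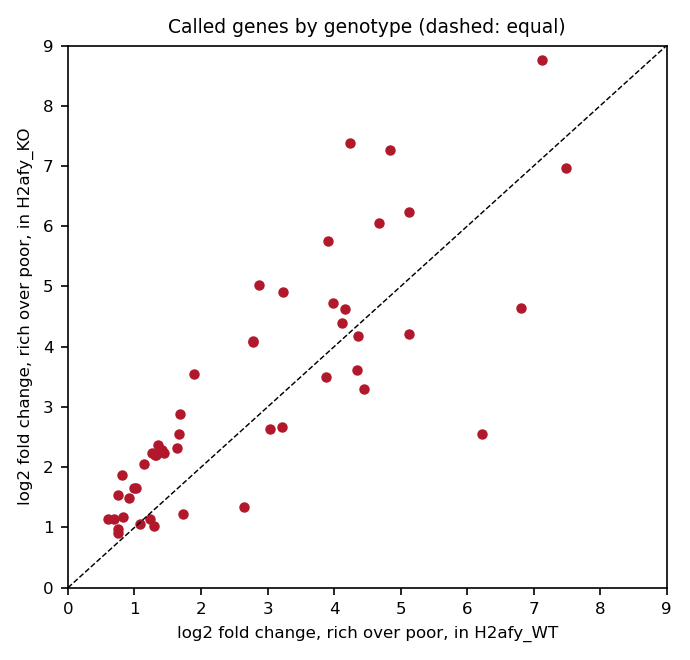
Log2 fold change of rich over poor pools within H2afy_KO (vertical axis) against that within H2afy_WT (horizontal axis) for the 49 genes that rose, with equality as a dashed line. All 49 points are above 0 on both axes and 34 lie above the line. The 49 were chosen as higher over these same pools, so the signs were nearly fixed and show no agreement between genotypes. They include 19 genes that passed the filter through the rich pools alone, drawn as a description.

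With the split in the model, the comparison of genotypes called 4 genes higher (0.0272%) and 6 lower (0.0407%) in H2afy_KO. The higher genes were Cd68, Nrp1, Ehd4 and Irf8, and the lower ones Nkd2, Icos, Bcat1, Robo4, Arpp21 and Slc18a1. Cd68, a glycoprotein of lysosomes in myeloid cells, had 117, 92.6, 82.5 and 83.8 CPM in H2afy_KO 3, 4, 1 and 2, and 47.2, 37.2, 26.6 and 26.7 CPM in H2afy_WT 3, 4, 1 and 2, so that each H2afy_KO pool lay above each H2afy_WT pool (log2 fold change 1.48, SE 0.14, edgeR adjusted p = 0.00534). Irf8, a factor of monocyte, dendritic and B cell fate, had a log2 fold change of 1.02 (SE 0.12, adjusted p = 0.0207). Without the split in the model, a fit chosen after seeing the data, 1 gene was higher and 4 were lower, and these 5 were among the 10. With the Y-linked covariate beside the split 1 was higher and 0 lower. A fixed block for the replicate number gave 14 higher and 19 lower genes, and 9 of the 10 were among them. Leaving out single pools gave 1 to 9 higher genes and 0 to 25 lower genes, with the fewest without H2afy_WT 3 and the most lower genes without H2afy_KO 4.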

How the data were processed

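RNA of 8 pools was made into cDNA with a low-input kit and sequenced as single reads of 50 bases, per the labels' protocols. The deposited file holds raw counts (whole numbers) for each Ensembl gene. The aligner was HISAT2 2.0.6 and the build mm9, per the submitters' processing notes, and for the counter and its strand setting the sources used here say nothing. Antisense partners and near-identical copies, variable segments included, can therefore share reads.

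GENCODE M1 (NCBIM37) named 37205 of 37991 gene IDs. The share used the 481 IDs whose type starts IG_, of which 230 are T cell receptor genes with few counts. The fit left out these and 7 genes with immunoglobulin names but another type, a choice made after the annotation and counts had been looked at. It used edgeR 4.0.16 (R 4.3.3): quasi-likelihood, TMM, filterByExpr with a minimum count of 10, genotype as covariate, Benjamini-Hochberg over 14726 genes, threshold 0.05. Contrasts within genotypes used 1 mean per cell of split and genotype. Standard errors were derived from the F statistic. Alternatives used DESeq2 1.42.0 and limma 3.58.1.

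The pools, lists and tests were chosen with earlier results of these data known. Named genes were H2afy, the 4 markers, the 10 largest fold changes among genes called without overlap at a mean of at least 5 CPM, and in each of 21 lists up to 4 called members or else the 2 of smallest p. This gave 47 genes, and 37 others were chosen with their values in view. Not all of these genes are reported here. Of 630 list entries 5 matched by synonym and 4 did not match. Same-numbered pools of the 2 genotypes had correlated deviations from their genotype means across genes (0.17, 0.17, 0.27 and 0.28). These deviations still hold the rich-poor difference, which same-numbered pools share, so they cannot show whether the numbers mark pairs. Pools of the same side but unlike number had 0.34 (H2afy_KO 1 with H2afy_WT 2) and 0.34 (H2afy_KO 3 with H2afy_WT 4). The other such values were -0.02 (H2afy_KO 2 with H2afy_WT 1) and 0.04 (H2afy_KO 4 with H2afy_WT 3). The number was fitted as a block in alternatives alone. The number is nested in the split, which allows it only as a random block there. No pool repeated another (smallest chi-square per degree of freedom 24.3). The fits were tested on simulated data. Promoters came from RefSeq.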

Additional observations from a re-analysis of the deposited data

Results flagged for a closer look

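In a group of 4 pools, a value was singled out when its gap to the nearest other pool was over 0.829 of the group's range. Of 96 such checks, of named genes and of the immunoglobulin percent, 12 were positive. Chance gives about 1 in 20 for independent values of normal spread. CPM values of 2 genotypes and of related genes need not be such, and the 12 were not tested against that rate. In the rich pools H2afy_WT 4 stood above the others for Gata1, the erythroid factor, with 29.7 CPM, and H2afy_KO 3 for Mrc1, the macrophage mannose receptor, with 39.3 CPM. Among the poor pools H2afy_KO 2 stood above the others for Sdc1 (63.6 CPM), Mrc1 (14.1 CPM), Pmaip1 (13.2 CPM) and Xist (535 CPM), and below them for Uty (0.208 CPM). H2afy_KO 2 is also the poor pool of highest immunoglobulin share. H2afy_KO 1 stood apart among the poor pools with the lowest Irf4 (10.8 CPM) and Rfc4 (283 CPM) and the highest Prss34 (0.872 CPM). H2afy_WT 1 had the highest poor values of Gata1 (12.9 CPM) and of the erythrocyte anion exchanger gene Slc4a1 (0.960 CPM).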

How the results depend on the processing

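The counts of genes past the threshold depended on the test, the filter and single pools. Without a filter, 834 genes rose and 298 fell in rich pools, 522 and 194 within H2afy_KO, 129 and 26 within H2afy_WT, 43 and 14 for the interaction, and 345 and 317 for genotype. DESeq2 had 588 and 137, 481 and 72 within H2afy_KO, 38 higher within H2afy_WT, 12 and 1 for the interaction, and 170 and 135 for genotype. Limma-voom had 175 and 7, 132 higher within H2afy_KO and 11 lower for genotype, and a filter of 5 CPM in 4 pools left 17 higher and, for genotype, 9 higher. Of the rich-poor calls, 1 rose without a genotype term, 2 at 5%, 0 at 15%, and 281 rose and 5 fell with the trend. With the replicate number as a random replicate block (correlation 0.0979) 0 rose, and as a fixed block the genotype comparison had 14 higher and 19 lower and the interaction 0.

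Of the alternatives chosen after seeing the data, leaving out both rich H2afy_KO pools gave 0 higher, leaving out both pools of lowest share 11, and the Y-linked covariate 7, with 1 higher and 0 lower for genotype, which had 1 higher without the split. That covariate turned the log2 fold changes of Uty (2.17) and Ddx3y (2.15), which are part of it. Leaving out single pools gave 0 to 211 higher and 0 to 57 lower genes, 0 to 153 and 0 to 2 within H2afy_KO, 0 to 5 and 0 within H2afy_WT, 0 to 4 and 0 for the interaction, and 1 to 9 and 0 to 25 for genotype. Where a pool is left out, its partner is assumed to vary like the other groups. The cause of these differences was not tested.

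Counting functional types alone gave the same shares, since no immunoglobulin pseudogene type was present. Adding Igj, or counting by name, kept each pool on its side of 12%. Keeping in the 7 genes of other type gave 49 higher and 0 lower.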
